A study of Mus musculus with 18 samples.

Results

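The transcripts described here encode the core of transforming growth factor beta (TGF-β) signaling, and they were read in mouse splenocytes. They are the ligand gene Tgfb1, the receptor genes Tgfbr1 and Tgfbr2, the signal carriers Smad2, Smad3 and Smad4, the inhibitor Smad7, and the corepressors Ski and Tgif1. These 9 genes were found by name among the 47729 reference genes of every table, and all 9 passed the filter on low values. The values are FPKM, which are fragment counts divided by transcript length and by the size of the library, so that levels can be set side by side between genes.

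RNA was sequenced in 18 spleen samples of C57BL/6J mice, labelled female and 4 to 6 weeks of age. The 3 N samples came from naive mice. The 3 LM samples came from mice immunized and boosted with LPPC/MP, in which a cationic lipo-PEG-PEI complex (LPPC) carries membrane proteins of dendritic cells (MP). The 6 LMA samples came from mice then modulated with LPPC/MP/CD28, which adds an antibody to the costimulatory receptor CD28, and the 6 LMS samples from mice modulated with LPPC/MP/CTLA4, labelled CD152, which adds an antibody to the inhibitory receptor CTLA4. Every group but N thus shared the LPPC/MP immunization, and LMA and LMS differ from LM in later doses and a later time as well as in the antibody, which cannot be told apart. The labels do not separate mice with a single modulation from those with a repeated one. The comparison of LMA with LMS asks how an activating and an inhibitory antibody on the same carrier left the spleen, and TGF-β is among the cytokines that the study followed as protein.

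TGF-β is secreted in a latent form and, once freed, binds the type II receptor TGFBR2, which recruits and phosphorylates the type I receptor TGFBR1. The type I receptor phosphorylates SMAD2 and SMAD3, which join SMAD4 and enter the nucleus to regulate transcription, while SMAD7 blocks the receptor and SKI and TGIF1 hold SMAD complexes in a repressive state. In the spleen the pathway is known for restraining T cell activation and for the induction of regulatory T cells. SMAD7 and SKI family members are themselves known as targets of the pathway.

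The samples of N and LMS were not uniform, which touches nearly every result below. N 1, N 2, LMS 2 and LMS 5 had the Y-linked gene Eif2s3y listed at 0 FPKM, while the other 14 samples, although labelled female, carried it at 31.0 to 43.0 FPKM. Xist, the transcript of the silenced X chromosome, stood at 48.1 to 59.9 FPKM in those 4 samples, at 0.286 in N 3 and 1.49 to 2.69 in the other LMS samples, and at 4.84 to 7.20 in LM and LMA beside the Y-linked transcripts. Whether samples were mixed or mislabelled cannot be told from these values, so every difference below is one between samples as labelled. In those 4 samples the 12 T cell markers, all above 1 FPKM, summed to between 551 and 871 FPKM and the 10 B cell markers to between 1502 and 1964. In N 3 and LMS 1, 3, 4 and 6 the same sums were 9.61 to 106 and 31.8 to 343, with 3 to 12 of the T cell markers above 1 FPKM, and the 12 macrophage and monocyte markers summed to between 3276 and 3625 FPKM, against 495 to 600 in the first 4 samples. The LM and LMA samples lay close together, with 82.7 to 167 FPKM for T cells, 216 to 357 for B cells and 2063 to 2236 for macrophages and monocytes, and with the highest sums of the 11 neutrophil markers, 1460 to 2799 FPKM against 26.6 to 559 in N and LMS. The 4 samples without Y-linked transcripts were themselves not alike, since the 8 erythroid markers summed to 2531 FPKM in N 1 and to between 71943 and 83555 in N 2, LMS 2 and LMS 5, against 157 to 7105 in the other 14, and N 1 had the highest value of the 4 for every member but Tgfbr1. No marker of these 5 lists was at 0 FPKM in any sample. The main comparisons are therefore given over all samples and in 2 sets, without N 1, N 2, LMS 2 and LMS 5 (which leaves N 3 as the only N sample, assumed to vary like the other groups) and without N 3 and LMS 1, 3, 4 and 6. Both sets keep every LM and LMA sample and were chosen after the values were seen, so agreement between them is not independent support. The p-values of the sets do not measure the spread within N and LMS as labelled. Bulk RNA cannot tell fewer cells of a type from less RNA per cell, and the part of cell composition in the differences below was not tested.

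The type II receptor gene Tgfbr2 was lower after LPPC/MP and LPPC/MP/CD28 than in naive mice, and Tgfbr2 after LPPC/MP/CTLA4 was not at that lower level. Tgfbr2 (ENSMUSG00000032440) lies on the minus strand of chromosome 9 from 116087698 to 116175363 of GRCm38. It stood at 62.4, 53.7 and 37.0 FPKM in N, and at 20.5, 22.0 and 20.4 FPKM in LM. In LMA it ranged from 19.8 to 21.5 FPKM with a mean of 21.0 ± 0.621 (SD, n = 6), and in LMS from 35.4 to 54.0 with a mean of 41.5 ± 8.83 (SD, n = 6). Every LM and LMA sample was below every N and LMS sample, and the highest LM value, 22.0 FPKM, was well under the lowest value of LMS, 35.4 FPKM. How many of all genes separate the groups without overlap was not counted, so such a separation, here or below, is not shown to be particular to a gene.

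Differences are given in log2(FPKM + 0.5) with their standard error (SE). In limma, Tgfbr2 fell by 1.23 in LM against N (SE 0.18, adjusted p = 0.000194) and by 1.23 in LMA against N (SE 0.16, adjusted p = 3.1e-05). Against LMS it fell by 0.94 in LMA (SE 0.13, adjusted p = 3.7e-05). The direction was the same in both sets of samples, with differences between LMA and LMS of -0.76 (SE 0.03, adjusted p = 7.1e-11) and -1.31 (SE 0.06, adjusted p = 1.8e-09). With N and LM alone in the fit, the difference of these groups kept its size but did not pass (adjusted p = 0.0815).

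The region around the start of Tgfbr2 is shown because this gene fell in each of those comparisons. It lies at chr9:116175314-116175613 of GRCm38.p6 on the minus strand, covering 250 bases before the start and the first 50 of the transcript, as RefSeq gives it. Capitals mark the SMAD-binding core CAGAC, or GTCTG on the other strand, which 49.6% of 32851 such mouse promoters hold at least once.
Tgfbr2 promoter: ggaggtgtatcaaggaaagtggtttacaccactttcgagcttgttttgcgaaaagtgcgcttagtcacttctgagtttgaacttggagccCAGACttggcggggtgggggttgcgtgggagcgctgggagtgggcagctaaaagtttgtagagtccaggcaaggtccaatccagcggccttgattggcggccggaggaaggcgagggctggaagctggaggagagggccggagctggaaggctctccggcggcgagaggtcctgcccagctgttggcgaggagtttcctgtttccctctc
The core occurs here at 1 place, 160 bases before the start. The 300 bases are 59.0% G or C, and neither the core recognised by TGIF proteins (TGTCA, or TGACA on the other strand, in 45.4% of the promoters) nor the AP-1 site TGACTCA (on the other strand read as TGAGTCA, and held by 5.2%) occurs in this window.

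Tgif1, which encodes a homeodomain corepressor of SMAD complexes, went the opposite way. Tgif1 (ENSMUSG00000047407) lies on the minus strand of chromosome 17 from 70844205 to 70853546. It stood at 26.5, 14.0 and 19.6 FPKM in N and at 30.3, 28.6 and 29.1 FPKM in LM. In LMA it ranged from 27.1 to 36.2 FPKM with a mean of 31.9 ± 3.13 (SD, n = 6), and in LMS from 13.0 to 21.3 FPKM with a mean of 17.9 ± 3.55 (SD, n = 6). Every LM and LMA sample was above every N and LMS sample, although the highest N value, 26.5 FPKM in N 1, came close to the lowest LMA value. In loci assembled from the same reads, described below, N 1 stood at 29.1 FPKM, above LM 2 at 28.6, so that this separation was not complete.

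Tgif1 rose by 0.83 on the log2 scale in LMA against LMS (SE 0.15, adjusted p = 0.000397) and by 0.70 in LMA against N (SE 0.18, adjusted p = 0.00752). In LM against N its difference was 0.59 (SE 0.21, adjusted p = 0.0504), which did not pass the threshold of 0.05. In the sets, Tgif1 was higher in LMA than in LMS by 0.64 (SE 0.06, adjusted p = 7.4e-07) and by 1.21 (SE 0.18, adjusted p = 5.2e-05). The call in LMA against N was lost without N 2 (0.47, adjusted p = 0.0717), and the LM against N difference passed without N 1 (adjusted p = 0.0113) or without N 3 (adjusted p = 0.0445). The summed neutrophil markers were highest in LM and LMA, in which Tgfbr2 was lowest and Tgif1 highest, but not each marker was: Csf3r stood at 23.2 to 27.6 FPKM and Cxcr2 at 7.77 to 8.90 in N 1, N 2, LMS 2 and LMS 5, against 5.08 to 8.46 and 2.26 to 3.75 in LM and LMA. The part of these cells in either difference was not tested.

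The start of Tgif1 is shown beside that of Tgfbr2 because the genes moved in opposite directions in the same samples. Of 5 RefSeq starts the one nearest to the start of the listed gene was taken, at chr17:70853483-70853782 of GRCm38.p6, minus strand. Capitals mark the SMAD core and the TGIF core as given above.
Tgif1 promoter: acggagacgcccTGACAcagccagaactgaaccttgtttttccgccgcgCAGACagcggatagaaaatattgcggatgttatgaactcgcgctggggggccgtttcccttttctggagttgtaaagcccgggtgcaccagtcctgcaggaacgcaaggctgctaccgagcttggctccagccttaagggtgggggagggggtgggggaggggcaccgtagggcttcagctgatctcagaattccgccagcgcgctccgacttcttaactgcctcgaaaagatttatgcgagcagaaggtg
The SMAD core occurs at 1 place, 201 bases before the start, and the TGIF core at 1 place, 238 bases before it, without overlap. The GC box GGGCGG, on the other strand read as CCGCCC, which 35.7% of the promoters hold, occurs in neither window, and the AP-1 site does not occur in this window.

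**Figure D1:**
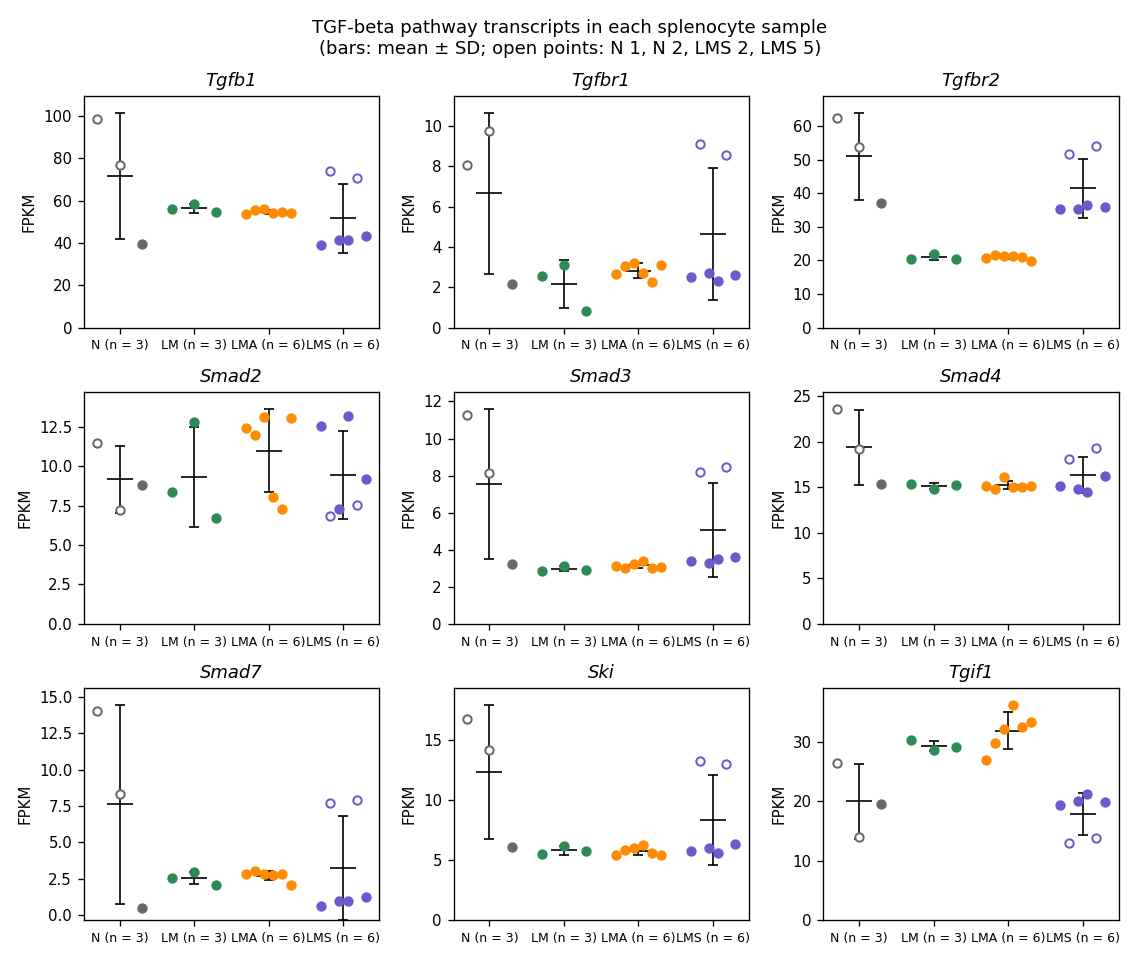
FPKM of the 9 genes (vertical axes) in each sample of N, LM, LMA and LMS, with open points for N 1, N 2, LMS 2 and LMS 5 and filled points for all others, and bars for the group mean and SD. In these reference gene values Tgfbr2 lies lower and Tgif1 higher in all LM and LMA samples than in all N and LMS samples. Tgfb1 and Smad7 of LM and LMA lie between the open and the filled points of N and LMS.

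The ligand gene Tgfb1 (ENSMUSG00000002603, chromosome 7 from 25687002 to 25705077, plus strand) was the most abundant of the 9, with a mean of 56.8 FPKM over all samples. It stood at 98.6, 76.9 and 39.6 FPKM in N, at 56.0, 58.7 and 54.6 FPKM in LM, and between 53.8 and 56.0 FPKM in LMA. In LMS it stood at 74.0 and 70.8 FPKM in LMS 2 and LMS 5 and between 38.9 and 43.4 FPKM in the other 4 samples. The LM and LMA values thus fell inside the range of N and of LMS, between the samples without Y-linked transcripts and the others.

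Over all samples Tgfb1 passed in no comparison, with a difference of 0.14 between LMA and LMS (95% interval -0.29 to 0.56) and of -0.29 between LMA and N (-0.81 to 0.23). In the sets it was called in opposite directions. Without N 1, N 2, LMS 2 and LMS 5, Tgfb1 was higher in LMA than in LMS by 0.40 (SE 0.03, adjusted p = 4.4e-08), and without N 3 and LMS 1, 3, 4 and 6 it was lower by 0.40 (SE 0.07, adjusted p = 0.000282). No single direction for Tgfb1 therefore held over these samples.

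Smad7, whose product blocks the activated receptor and is induced by the pathway, showed the same arrangement with wider gaps. Smad7 (ENSMUSG00000025880, chromosome 18) stood at 14.1, 8.34 and 0.460 FPKM in N and at 2.56, 2.93 and 2.10 FPKM in LM. It lay between 2.07 and 3.04 FPKM in LMA, at 7.68 and 7.94 FPKM in LMS 2 and LMS 5, and between 0.634 and 1.21 FPKM in the other 4 LMS samples. LMA lay above those 4 and below the pair LMS 2 and LMS 5, with no overlap on either side.

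Over all samples Smad7 differed by 0.32 between LMA and LMS (95% interval -0.99 to 1.63) and by -0.64 between LMA and N (-2.24 to 0.96), and passed in no comparison. It was higher in LMA than in LMS by 1.17 in the set without N 1, N 2, LMS 2 and LMS 5 (SE 0.12, adjusted p = 1.2e-06) and lower by 1.38 in the set without N 3 and LMS 1, 3, 4 and 6 (SE 0.17, adjusted p = 1.5e-05).

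Apart from these, the type I receptor gene Tgfbr1, the signal carrier genes Smad3 and Smad4, and the corepressor gene Ski, were high in N 1, N 2, LMS 2 and LMS 5 and close to a common level in the remaining samples. Smad3 (ENSMUSG00000032402, chromosome 9 from 63646767 to 63757994, minus strand) stood at 11.3, 8.13 and 3.21 FPKM in N, between 2.88 and 3.12 in LM and between 3.04 and 3.41 in LMA. In LMS it stood at 8.19 and 8.49 FPKM in LMS 2 and LMS 5 and between 3.26 and 3.60 in the others. Ski (ENSMUSG00000029050, chromosome 4 from 155154075 to 155222592, minus strand), a corepressor that binds SMAD3 and SMAD4, stood at 16.7, 14.2 and 6.05 FPKM in N, between 5.48 and 6.18 in LM, between 5.44 and 6.21 in LMA and between 5.58 and 13.2 in LMS. For both genes the values of N 3 and of LMS 1, 3, 4 and 6 overlapped those of the LM and LMA samples.

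In LMA against N, Smad3 fell by 0.98 in log2 FPKM (SE 0.33, adjusted p = 0.0307) and Ski by 0.92 (SE 0.30, adjusted p = 0.0260). Both calls were lost when N 1 (adjusted p = 0.22 for Smad3 and 0.177 for Ski) or N 2 (0.128 and 0.127) was left out. Without N 1, N 2, LMS 2 and LMS 5, the differences between LMA and N were -0.02 for Smad3 (SE 0.08, adjusted p = 0.819) and -0.07 for Ski (SE 0.09, adjusted p = 0.505). Without N 3 and LMS 1, 3, 4 and 6 they were -1.46 (SE 0.10, adjusted p = 5.1e-08) and -1.35 (SE 0.07, adjusted p = 1.2e-08). In LMS against LM, Smad3 was higher in both sets, by 0.18 (SE 0.06, adjusted p = 0.0114) and by 1.35 (SE 0.11, adjusted p = 3.8e-07), while over all samples its difference of 0.57 did not pass (adjusted p = 0.265).

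Smad4 (ENSMUSG00000024515, chromosome 18), the shared partner of the receptor-regulated SMADs, had the narrowest range of the 9 relative to its level. It stood at 23.6, 19.2 and 15.4 FPKM in N, between 14.8 and 15.4 in LM, between 14.9 and 16.2 in LMA and between 14.5 and 19.3 in LMS. In LMA against N, Smad4 fell by 0.32 in log2 FPKM (SE 0.11, adjusted p = 0.0366). This call was lost without N 1 (adjusted p = 0.273), without N 2 (0.101) and without any LMA sample but LMA 3 (0.0567 to 0.0591), and after scaling by the median of ratios the difference was -0.17 (adjusted p = 0.2). That scaling moved the median difference of all genes in LMA against N from -0.13 to 0.01.

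Tgfbr1 (ENSMUSG00000007613, chromosome 4 from 47353222 to 47414931, plus strand) was far less abundant than its partner Tgfbr2 in all samples. It stood at 8.09, 9.74 and 2.15 FPKM in N, at 2.54, 3.13 and 0.836 FPKM in LM, between 2.25 and 3.22 in LMA and between 2.30 and 9.13 in LMS. The high LMS values were again LMS 2 and LMS 5, at 9.13 and 8.57 FPKM. Tgfbr1 passed in no comparison over all samples, with -0.41 between LMA and LMS (95% interval -1.25 to 0.42), and was lower in LMA than in LMS by 1.50 in the set without N 3 and LMS 1, 3, 4 and 6 (SE 0.29, adjusted p = 0.000466), where the other set gave 0.13 (adjusted p = 0.593).

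Smad2 (ENSMUSG00000024563, chromosome 18), the other receptor-regulated SMAD, followed neither arrangement. Its reference gene values stood at 11.4, 7.21 and 8.82 FPKM in N, at 8.35, 12.8 and 6.74 FPKM in LM, between 7.28 and 13.1 in LMA and between 6.81 and 13.2 in LMS, so that the groups overlapped and samples of a single group differed by nearly as much as all samples together. Smad2 passed in no comparison or set, with 0.22 between LMA and LMS (95% interval -0.23 to 0.67).

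The deposited tables also hold loci assembled from the reads, listed beside the reference genes, and for Smad2 these differed from the reference gene in level and in spread. The assembled Smad2 locus stood at 14.3 ± 0.509 FPKM in LM (SD, n = 3) and 14.9 ± 0.863 in LMA (SD, n = 6), where the reference gene gave 9.30 ± 3.15 and 11.0 ± 2.63. In N and LMS the assembled locus stood at 17.1 ± 1.75 (SD, n = 3) and 16.8 ± 2.06 FPKM (SD, n = 6). The spread of the Smad2 reference values within LM and LMA was thus not present in the values of the locus as a whole. Tgfbr1 in LM 3 changed likewise, from 0.836 to 3.05 FPKM, and the SD of Tgfbr1 in LM from 1.19 to 0.329. The assembled locus holding Ski reached 28.5 FPKM in LMS 6, where the reference gene gave 6.35 FPKM. For Tgfb1, Tgfbr2 and Smad7 the group means by either listing differed by less than the SD of the group. The LM mean of Tgif1 moved from 29.4 ± 0.859 to 30.6 ± 1.89 FPKM (SD, n = 3), and N 1 from 26.5 to 29.1.

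**Figure D2:**
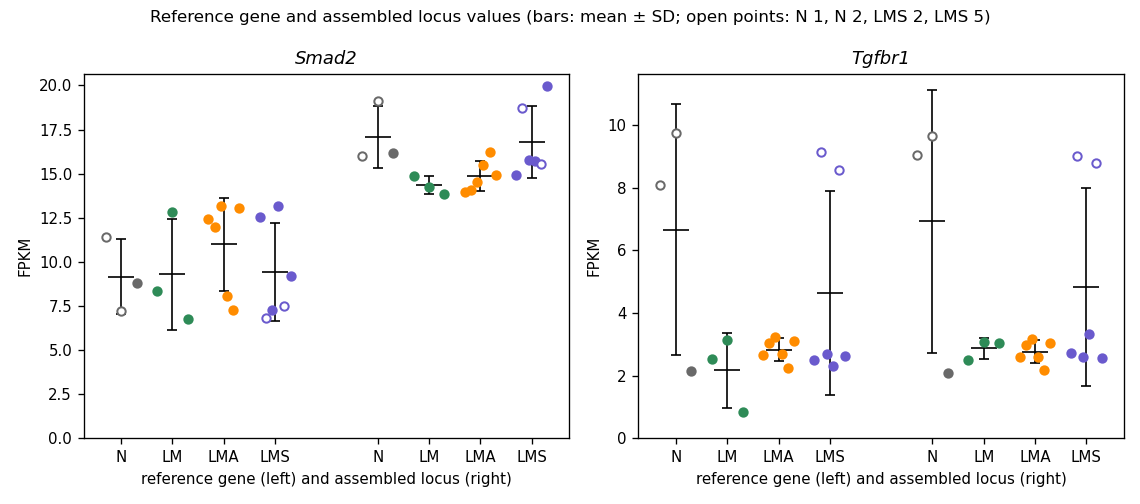
FPKM of Smad2 and Tgfbr1 (vertical axes) in each sample, as listed for the reference gene (left in each panel) and for the assembled locus (right), with bars for mean and SD and open points for N 1, N 2, LMS 2 and LMS 5. The Smad2 locus gives higher values with less spread in LM and LMA, and the low Tgfbr1 value of LM 3, 0.836 FPKM, becomes 3.05 FPKM.

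Counted over the 9 members, 5 passed in LMA against N, with Tgif1 higher and Tgfbr2, Smad3, Smad4 and Ski lower, where 35.4% of the 11436 genes tested passed (13.6% higher and 21.9% lower). Scaling by the median of ratios changed the split of all calls from 1553 higher and 2501 lower to 2138 higher and 1707 lower. The median difference of the members was -0.64, against -0.13 over all genes tested. Its sign depended on the N samples kept. Without N 1, N 2, LMS 2 and LMS 5, where N 3 is the only N sample, it was 0.27, against -0.09 over all genes. In the other set it was -1.35, against -0.12. In LM against N only Tgfbr2 passed, where 25.0% of all genes did, with 6 members and 4397 of the 11436 genes tested at an unadjusted p under 0.05. These comparisons share the N samples, so their values are not independent.

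In LMA against LMS, 2 members passed, Tgif1 higher and Tgfbr2 lower, where 30.7% of all genes passed (11.3% higher and 19.4% lower, or 1771 higher and 1539 lower genes after scaling by the median of ratios in place of 1296 and 2213). The median difference of the members was -0.09, against -0.12 over all genes. In LMS against LM the same 2 members passed, with Tgfbr2 higher by 0.94 (SE 0.16, adjusted p = 0.000432) and Tgif1 lower by 0.72 (SE 0.18, adjusted p = 0.00867), where 21.3% of all genes passed.

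No member passed in LMS against N, where 0.0% of all genes passed in limma, with 506 of the 11436 genes and 0 of the 9 members at an unadjusted p under 0.05. Tgfbr2 differed by -0.29 between LMS and N (95% interval -0.62 to 0.05) and Tgif1 by -0.13 (-0.52 to 0.25). Without N 3 alone, 6 members passed in LMS against N, all of them lower in LMS, where 33.5% of all genes passed and 20.6% were lower, among them Smad7 (-2.15, adjusted p = 0.0392) and Smad3 (-0.97, adjusted p = 0.0398). In the 2 sets none passed, where 5.27% and 0.0175% of all genes did.

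No member passed in LMA against LM either, where again 0.0% of all genes passed in limma, with 131 genes and 0 members at an unadjusted p under 0.05. That fit takes 1 estimate of the spread from all groups, N and LMS included. With LM and LMA alone in the fit 0.42% of all genes passed, with sample weights 1.43%, and in the 2 sets 0.577% and 0.0787%, and no member passed in any of these. The difference was 0.00 for Tgfbr2 (95% interval -0.34 to 0.34), 0.11 for Tgif1 (-0.27 to 0.50) and -0.04 for Tgfb1 (-0.56 to 0.47). For Smad7 the interval ran from -1.51 to 1.69, so that a 2-fold difference in either direction lay inside it.

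**Figure D3:**
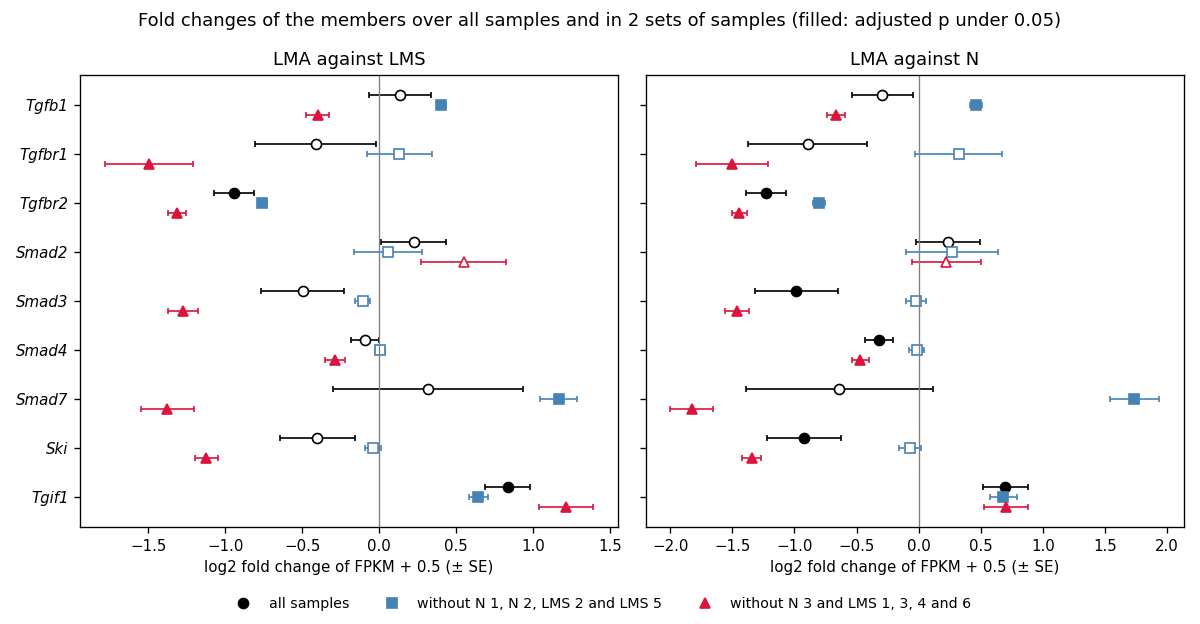
Log2 fold change of FPKM + 0.5 with its standard error (horizontal axes) for the 9 genes in LMA against LMS and in LMA against N, over all samples (circles) and in the sets without N 1, N 2, LMS 2 and LMS 5 (squares) and without N 3 and LMS 1, 3, 4 and 6 (triangles), filled where the adjusted p was under 0.05. Tgfbr2 lies left and Tgif1 right of 0 with every symbol, and the squares and triangles of Tgfb1 and Smad7 lie on opposite sides.

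Without N 1, N 2, LMS 2 and LMS 5, 4 members passed in each of LM against N, LMA against N and LMA against LMS and 5 in LMS against LM, where 60.3%, 61.6%, 72.1% and 68.1% of all genes passed. Without N 3 and LMS 1, 3, 4 and 6, 8 members passed in each of these comparisons, where 76.8%, 79.9%, 78.8% and 75.9% of all genes passed. Smad2 was the member that did not. Tgif1 was higher and Tgfbr2 lower in LM and in LMA than in N, and in LM and in LMA than in LMS, in both sets, and Tgfb1 and Smad7 were called in opposite directions in each of these comparisons.

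Ratios of members within a sample do not depend on how the sample was scaled. The log2 ratio of Tgif1 to Ski was 0.78 ± 0.86 in N (SD, n = 3), 2.34 ± 0.13 in LM (SD, n = 3), 2.47 ± 0.12 in LMA (SD, n = 6) and 1.19 ± 0.90 in LMS (SD, n = 6). Tgif1 was thus between 4.63 and 6.15 times the level of Ski in every LM and LMA sample and at most 3.82 times in any N or LMS sample. The log2 ratio of Smad7 to Smad3 was -0.24 ± 0.20 in LM and -0.22 ± 0.20 in LMA, and ran from -2.80 to 0.32 in N and from -2.41 to -0.09 in LMS. Tgfbr1 stood at between 0.0410 and 0.181 of the level of Tgfbr2 in all samples. These ratios are descriptions and were not tested.

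The gene with the profile most like each member, by the root mean square difference of centred log2(FPKM + 0.5) over the 18 samples, is given as a description. For Tgfbr2 it was Ddx17, an RNA helicase gene (0.04), followed by Fam208b (0.06) and Ubtf (0.08), where the median gene stood at 0.65. For Tgfb1 it was B2m, the light chain of MHC class I (0.04), followed by R3hdm4 (0.06) and Gm2a (0.07). For Tgif1 it was Npc1, which encodes a lysosomal cholesterol transporter (0.11), followed by Pld4 (0.12) and Per1 (0.14).

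Smad3 was nearest to Dyrk2 (0.06), Rnf44 (0.07) and Kif21b (0.07), and Ski to Themis2 (0.07), Cdyl2 (0.07) and Dhx57 (0.07). Smad4 was nearest to Arfgap2, Eif3f and Rab21 (0.05 each), and Smad7 to Itgb7, an integrin subunit of lymphocytes (0.13), Gpr132 (0.17) and the kinase gene Syk (0.18). The nearest genes of Tgfbr1 (Atf7ip, Pik3r1 and Dock9) stood at 0.25 to 0.27 and those of Smad2 (Hnrnpf, Ndufa13 and Cnot7) at 0.28 to 0.30. The SD of the centred values was 0.76 for Tgfbr1 and 0.35 for Smad2. These are reference gene values, whose spread in LM was wider than that of the assembled locus for both genes. Nearest profiles of the assembled loci were not sought.

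Around the 9 members, a list of 105 further genes of the TGF-β superfamily pathway was read, of which 104 were in the tables and 71 passed the filter. In LMA against N, 28 of the 71 passed, 12 higher and 16 lower, with a median difference of -0.12 against -0.13 over all genes. In LMA against LMS, 23 passed, 13 higher and 10 lower, with a median of 0.06 against -0.12. LM against N gave 21, 10 higher and 11 lower. LMS against N and LMA against LM gave 0 in limma, with 5 and 1 at an unadjusted p under 0.05. The shares of all genes given above (in LMA against LMS 11.3% higher and 19.4% lower) are the background of these counts and of those by role below. For calls in the same or in opposite directions in both sets, no share over all genes was counted, so those counts have no background. In the 2 sets, 14 of the 71 were higher and 12 lower in LMA than in LMS both times, and 20 were called in opposite directions.

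Genes that act on the latent ligand moved both ways. Of 7 tested, 3 were higher and 1 lower in LMA than in LMS. Furin, which encodes a protease that cleaves the TGF-β precursor, stood at 21.2 to 22.5 FPKM in LM and 19.4 to 24.0 in LMA, and at 12.7 to 14.2 in N and 11.9 to 15.6 in LMS, and rose by 0.67 in LMA against LMS (SE 0.08, adjusted p = 7.7e-06). Nrros, which holds latent TGF-β on myeloid cells, stood at 29.9 to 55.2 FPKM in N, 13.1 to 16.3 in LMA and 24.0 to 28.0 in LMS, and fell by 0.80 (SE 0.12, adjusted p = 8.7e-05). Thbs1, the gene of thrombospondin, which can activate latent TGF-β, rose by 1.12 (adjusted p = 0.00521). The ranges of LMA and LMS did not overlap for any of these 3 genes, and each passed in the same direction in both sets.

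Of the other receptor genes 9 were tested, of which 1 was higher and none lower in LMA than in LMS, and of the other SMAD genes 3, of which 1 was higher and 1 lower. Acvrl1, a type I receptor gene, stood at 1.02 to 3.75 FPKM in N, 4.36 to 5.13 in LMA and 1.36 to 3.61 in LMS, and rose by 0.80 in LMA against LMS (adjusted p = 0.0175). Smad6, an inhibitory SMAD of the BMP branch, stood at 0.0938 to 0.771 FPKM in N, 1.27 to 1.61 in LMA and 0.0346 to 1.02 in LMS, and rose by 0.87 (adjusted p = 0.0270). Smad5, a BMP signal carrier, fell by 0.39 (adjusted p = 0.00215). These 3 genes passed in the same direction in both sets. In LMA against N, Acvr1b, an activin receptor gene, fell by 0.87 (adjusted p = 0.0355) and Smad1 by 0.28 (adjusted p = 0.0374). Both calls were lost without N 1, N 2, LMS 2 and LMS 5, where the differences were 0.02 for Acvr1b (adjusted p = 0.845) and -0.12 for Smad1 (adjusted p = 0.368), against -1.32 and -0.36 in the other set. Of the ligands besides Tgfb1, 2 of 16 were tested, and Gdf15 rose from 0.278 ± 0.115 FPKM in LMS (SD, n = 6) to 1.45 ± 0.454 in LMA (SD, n = 6), a difference of 1.31 (adjusted p = 1.0e-05).

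In the non-SMAD branch, TRAF6 and the kinase TAK1 (Map3k7) lead to p38 (Mapk14). Of 7 genes tested, 4 were lower and none higher in LMA than in LMS, where 19.4% of all genes were lower, and the median difference of the 7 was -0.20 against -0.12 over all genes. Traf6 stood at 8.07 to 9.41 FPKM in N and 6.95 to 8.30 in LMS, and at 4.36 to 5.04 in LM and 4.61 to 5.21 in LMA, and fell by 0.56 (adjusted p = 3.6e-06). Map3k7 fell by 0.44 (adjusted p = 2.3e-05) and Mapk14 by 0.58 (adjusted p = 0.000124). All 3 passed in both sets in the same direction, and for all 3 every LMA sample was below every LMS sample.

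Coregulators and turnover genes were mixed. Skil, a close relative of Ski, fell by 0.55 (adjusted p = 0.0108) and the acetyltransferase gene Ep300 by 0.47 (adjusted p = 0.0101) in LMA against LMS, and both also fell in LMA against N (by 0.88, adjusted p = 0.00184, and by 0.67, adjusted p = 0.0035). Runx1, a partner of SMADs on DNA, fell in LMA against N by 0.66 (adjusted p = 0.00971), and Snx6, a sorting nexin gene, rose in LMA against LMS by 0.38 (adjusted p = 0.00809). Smurf2, a ubiquitin ligase gene for receptors and SMADs, fell by 0.62 in LMA against LMS (adjusted p = 0.0014) and the chaperone-linked ligase gene Stub1 rose by 0.20 (adjusted p = 0.00702). Trim33 and Rnf111, further ubiquitin ligase genes of the pathway, fell in LMA against N, by 0.31 (adjusted p = 0.00978) and 0.67 (adjusted p = 0.0138), and did not pass in LMA against LMS (adjusted p = 0.0634 and 0.078). In the sets Trim33 passed both times in LMA against N. Rnf111 in LMA against N was not called without N 1, N 2, LMS 2 and LMS 5 (-0.13, adjusted p = 0.0810) and differed by -0.94 in the other set, while in LMA against LMS it passed in both, by -0.17 (adjusted p = 0.000871) and -0.81 (adjusted p = 3.5e-06). The other calls of this paragraph held in both sets.

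Of 16 known targets tested, 5 were higher and 2 lower in LMA than in N, where 13.6% of all genes were higher and 21.9% lower. In LMA against LMS over all samples, 3 of the 16 were higher and none lower, where 11.3% of all genes were higher and 19.4% lower. Id1, an inhibitor of helix-loop-helix factors and a target of BMP and TGF-β signals, stood at 1.24 ± 0.547 FPKM in N (SD, n = 3), 3.63 ± 0.616 in LMA (SD, n = 6) and 1.00 ± 0.575 in LMS (SD, n = 6), and rose by 1.52 (SE 0.21, adjusted p = 4.2e-05). Rgs16, a regulator of G protein signaling, rose by 1.72 (adjusted p = 0.000387), and Id1 and Rgs16 were higher in both sets. So were Cdkn1a and Klf10, while Ahr and Id3 were lower in both. Ctgf, Cxcr4, Fn1, Id2, Itgae, Junb, Myc, Tgfbi and Tgm2 changed sign between the sets. Without N 1, N 2, LMS 2 and LMS 5, Fn1 differed by 1.07 and Tgfbi by 1.18 between LMA and LMS. In the other set these differences were -2.14 and -1.85, so the targets had no single direction. Dab2, an endocytic adaptor gene listed with turnover, stood at 79.5 to 88.8 FPKM in LMA, at 28.6 to 29.8 in the LMS samples with Y-linked transcripts and at 0.0382 and 0.0437 FPKM in LMS 2 and LMS 5, and rose by 3.47 in LMA against LMS (adjusted p = 0.0325).

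**Figure D4:**
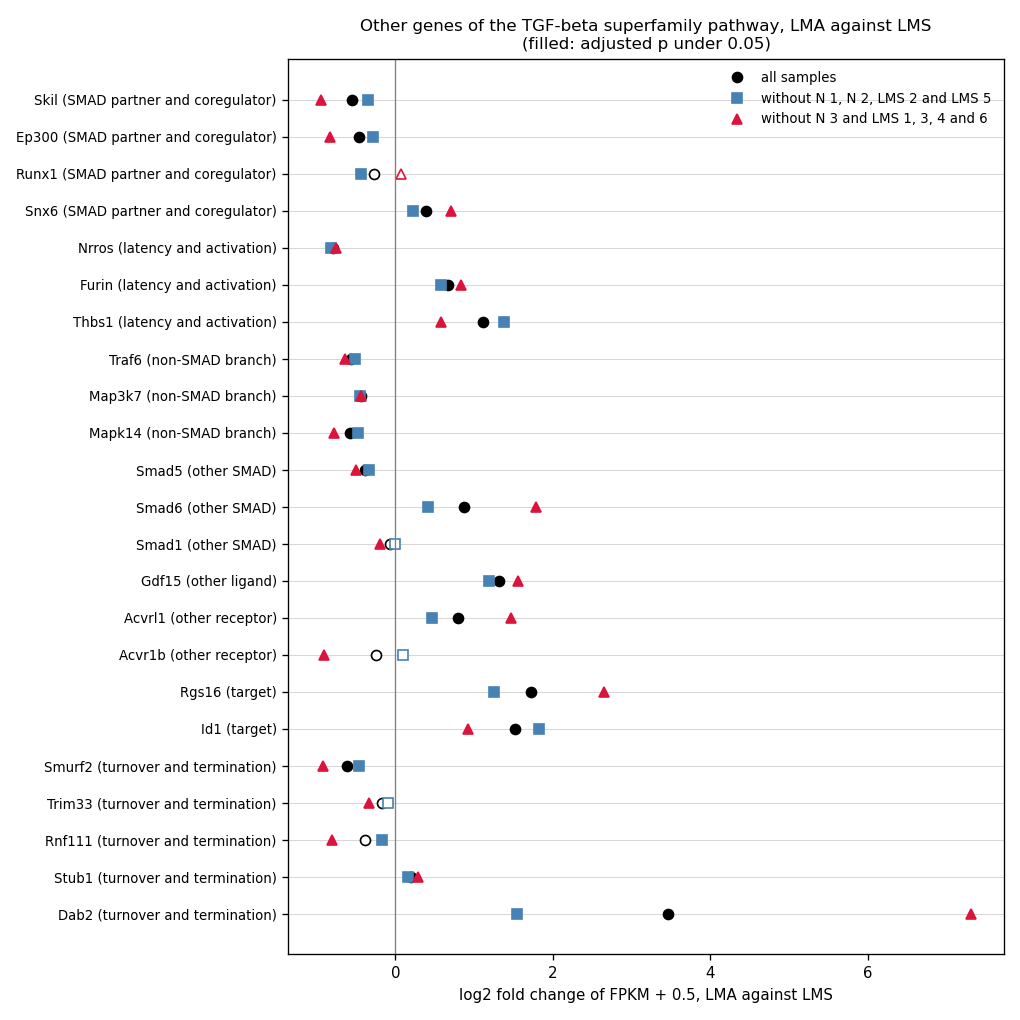
Log2 fold change of FPKM + 0.5 in LMA against LMS (horizontal axis) for genes of the wider pathway list named by their adjusted p, grouped by role. Circles give all samples, squares the set without N 1, N 2, LMS 2 and LMS 5, and triangles the set without N 3 and LMS 1, 3, 4 and 6. Symbols are filled where the adjusted p was under 0.05. Furin, Gdf15, Id1 and Rgs16 lie right of 0 with all 3 symbols and Nrros, Traf6, Map3k7 and Mapk14 left of it.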

How the data were processed

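The study sequenced RNA of splenocytes on a NovaSeq instrument. The authors deposited a table per sample with FPKM, scaled to gene length and library size, with replicates kept apart, and a coverage signal, the mean read depth of a gene. Dividing coverage by FPKM gave 5.21 to 7.92 gigabases of aligned sequence per sample; counts per gene were not analysed here, so low values carry no counting interval. Per the submitters' processing notes the build was mm10 and a tool GATK 4.2; which aligner and quantifier were used is not given in the sources used here. The protocol fields of the labels describe melanoma tumours, while the methods describe splenocytes. Groups and replicate numbers came from the labels. No source states that samples came from separate animals, so p-values measure the spread between these samples, which may be technical.

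Reference genes were read by name, 22 identifiers listed more than once were summed, and loci assembled from the same reads served as an alternative. Tested were the 11436 of 21620 protein-coding genes (GENCODE M21) with a mean of at least 0.5 FPKM. limma 3.58.1 in R 4.3.3 (lmFit, eBayes with a trend) modelled log2(FPKM + 0.5) by group over all 18 samples, with Benjamini-Hochberg adjustment within a comparison and a threshold of 0.05. Fold changes on this scale understate the change of low genes. The fit was tested on simulated normal values with the same spread of a gene in every group. That setting does not cover groups as uneven as N and LMS were here. Alternatives were pseudocounts of 0.1 and 1, other filters and scalings, sample weights, a fit of the compared groups alone, a replicate block and leaving out each sample, and, chosen after seeing the data, the 2 sets of samples and the assembled loci. Promoters came from RefSeq for GRCm38.p6, with both genes searched matched by symbol; sequence of genes on chromosome 18, and a gene of the wider list by name, are not reported here. Tables and figures were made with pandas 2.3.3, numpy 2.4.6 and matplotlib 3.10.9 in Python 3.11.15. The members and lists were chosen with earlier results of these data known. Named are all members, up to 3 called genes per role of the wider list with the smallest adjusted p in LMA against N and in LMA against LMS, and the 3 nearest profiles of each member; Eif2s3y, Xist, Csf3r and Cxcr2 were named after their values were seen.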

Additional observations from a re-analysis of the deposited data

Results flagged for a closer look

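In LMA, Smad4 in LMA 3 stood at 16.2 FPKM, apart from the other 5 samples, and Smad7 in LMA 6 stood at 2.07 FPKM, below the other 5. Of 18 tests of a gene in LMA or LMS for a sample far from the others, chance alone gives about 1 in 20. Without LMA 3 the difference of Smad4 between LMA and N remained called, and Smad7 was called in neither case.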

How the results depend on the processing

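Of the member results recomputed with other pseudocounts, filters, scalings, fits and left-out samples, 909 kept their side of the threshold, 43 newly passed, 20 no longer passed and none reversed a call; 43 changed sign without being called in either case. The causes of the changes were not tested. Members called in LM against N (1) came to 0 with the compared groups alone, to 2 with the replicate block, a pseudocount of 1, scaling by the median of ratios or a filter at 1 FPKM, and to 8 with sample weights, whose estimate did not converge fully. All genes called there came to 0.455% with the compared groups alone, 22.6% to 25.9% with the next 4 settings and 58.9% with weights, against 25.0%. In LMA against N (5) they came to 2 with the replicate block, 3 with the median of ratios and 8 with sample weights, in LMS against N (0) to 7 with weights, in LMS against LM (2) to 5 and in LMA against LMS (2) to 4. Of all genes, 28.3%, 33.7% and 60.8% were called in LMA against N under these, and with weights 59.6%, 69.3% and 72.8% in the last 3. Leaving out a sample gave 1 to 8, 1 to 8 and 0 to 6 members in LM, LMA and LMS against N, the highest without N 3 (58.2%, 66.0% and 33.5% of all genes), and 2 in both comparisons of LMS with LM and LMA. Wider genes in LM against N (21) came to 0 with the compared groups alone and 46 with weights, in LMA against N (28) to 48, in LMS against N (0) to 46 and in LMA against LMS (23) to 55, with ranges of 12 to 46, 14 to 52, 0 to 25 and 20 to 25 when a sample was left out. Same-numbered samples deviated together in 13 of 21 pairs (correlation over 0.1, from -0.642 to 0.906). The median correlation was 0.223 for these 21 pairs and -0.0253 for pairs of other numbers, and 6 of 18 samples were nearest to their own number. Whether same-numbered samples share more than a number was not tested.

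In the set without N 1, N 2, LMS 2 and LMS 5, members called in LM against N, LMS against LM and LMA against LMS came to 4, 5 and 4, and wider genes in LM, LMA and LMS against N and LMA against LMS to 49, 46, 6 and 56. Tgfb1 reversed to 0.50 in LM against N and 0.46 in LMA against N, and Smad7 to 1.65 and 1.74. In the set without N 3 and LMS 1, 3, 4 and 6, members came to 8 in LM against N, LMA against N, LMS against LM and LMA against LMS, and wider genes to 64, 61, 1 and 58. Tgfb1 reversed to 0.36 in LMS against LM and -0.40 in LMA against LMS, and Smad7 to 1.46 and -1.38.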
